A study of Homo sapiens with 38 samples.

Results

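The zinc finger genes with a ZNF symbol were examined in RKO, a human colorectal cancer cell line, after exposure to inhibitors of the histone demethylase LSD1. A gene was included when its identifier in the expression table was ZNF followed by a number, occurred once, and had a mean level of at least 2 FPKM (fragments assigned to a gene, scaled to its exon length and to library size) over 8 libraries. In all, 182 of 533 such ZNF identifiers passed, out of 25504 unique identifiers in the table. The genes were thus chosen by this mean level, which is a description and not a finding. ZNF160 (2.00 FPKM), ZNF440 (1.98) and ZNF260 (1.91) lay just under the threshold, and ZNF761 (2.00), ZNF767 (2.02) and ZNF669 (2.03) just above it. Another 41 ZNF identifiers were listed at 0 in every library.

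The 8 RNA libraries came from 4 treatments on 2 days, with 1 library per condition and no replicate. Cells received DMSO, NCD38, NCD38-β2P4 or NCD38-β2PIPP for 4 or 30 days, in medium with 10% fetal bovine serum and, per the labels, 0.1% DMSO in every arm. NCD38 is an LSD1 inhibitor, and in both conjugates it was joined through β-alanine to a pyrrole-imidazole (Py-Im) polyamide, a small molecule that binds the minor groove of DNA. P4 was designed for runs of A and T, and PIPP for a CG flanked by A or T. The labels give 2 µM for both days, whereas the Methods give 2 mM for day 4. The sources used here do not say when each library was made or sequenced, so day and any such batch cannot be told apart.

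C2H2 zinc finger proteins form a large family of DNA-binding factors, in which each finger folds around a zinc ion held by a pair of cysteines and a pair of histidines. Many also carry a KRAB domain, which recruits TRIM28 and, through it, the H3K9 methyltransferase SETDB1, HP1 proteins and histone deacetylases, and many of these repress transposable elements. The family has expanded by repeated duplication, above all in clusters on chromosome 19. LSD1 belongs to the CoREST co-repressor complex, to which ZNF217 and ZNF516 have also been linked.

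Of the 182 genes, 54 lay on chromosome 19 and 68 carried a KRAB match in the coding sequence. A search of the reading frames for the codon pattern of a C2H2 finger found a median of 8 matches and a maximum of 36, in ZNF142. None was found in 8 genes, among them ZNF259 (now ZPR1), which has zinc fingers of another type, and 3 genes had no coding sequence in the annotation. GC content of the transcript was between 35.7% and 70.9%. The labelled colorectal cell type was checked on epithelial and intestinal marker genes: KRT18 was at 76.2 to 121 FPKM and CDX2 at 7.48 to 11.6 FPKM in all libraries. EPCAM, an epithelial marker, was at 3.94 to 6.53 FPKM on day 30 and at 0.0922 to 0.867 on day 4, and KRT8 at 6.58 to 19 FPKM over all libraries. CDH1, KRT19, VIL1, CDX1 and LGR5 were at or near 0, and so were the defining genes of blood, endothelial, fibroblast, liver and glial cells. In bulk RNA, fewer cells of a state and less RNA per cell cannot be told apart.

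The most abundant members included genes with known roles outside transcription. ZNF593, a small protein with a role in ribosome biogenesis, had a mean of 156 FPKM. ZNF581 followed with 79.9, ZNF207 (BuGZ, a spindle assembly factor) with 68.0, ZNF672 with 66.6, ZNF580 with 60.9 and ZNF259 with 56.9 FPKM. The gene bodies of ZNF580 and ZNF581 overlap on the same strand of chromosome 19 (chr19:56146382-56154836 and chr19:56146825-56156989, GRCh37), so the split of fragments between them is uncertain. The median member was at 5.15 FPKM. By an estimate of depth from low FPKM values, the libraries held 12500000 to 22900000 fragments, and a member had a median of 308 fragments in a library, with 59 members under 50 in at least 1 library.

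The largest differences lay between the days, not between the treatments. A linear model of log2(FPKM + 1) with treatment and day was fitted to 10865 features with a mean of at least 1 FPKM (limma, Benjamini-Hochberg adjusted p under 0.05 as threshold). It called 62 members higher on day 30, beside 30.2% of all features tested. Another 62 members were lower on day 30, beside 31.7% of all features. Each count is 34.1% of the members. Over the 9446 features with a mean of at least 2 FPKM, the level that also chose the members, 28.5% were higher and 34.6% lower. Of the 62 higher members, 43 had a day 4 mean under 2 FPKM, and of the 62 lower ones 10 had a day 30 mean under 2 FPKM. Such members met the mean through 1 of the days, so the counts are a description and support nothing about the members. Of the 119 members at 2 FPKM or above on both days, 19 were higher (16%) and 52 lower (43.7%) on day 30, beside 21.8% and 37.9% of the 7936 features filtered in the same way. The median difference of members was −0.04 on the log2 scale, beside −0.02 over all features tested. For 8668 features in the same 10 bins of mean FPKM, the mean of the bin medians was 0.13. The range over members was wide, from −2.20 to 3.25. All 4 day 30 libraries lay above all 4 day 4 libraries for 62 members (29.5% of all features), and below them for 60 members (33.1% of all features).

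ZNF300, a KRAB zinc finger gene on chromosome 5 (chr5:150273954-150284545, GRCh37), had the largest difference among members. On day 30 its level was 13.8 FPKM for DMSO, 12.9 for NCD38, 18.7 for NCD38-β2P4 and 17.1 for NCD38-β2PIPP. On day 4, in the same order, it was 0.430, 0.0809, 0.912 and 2.05 FPKM. The days did not overlap, and within day 4 the NCD38 library was the lowest and the NCD38-β2PIPP library the highest. The log2 difference of day 30 against day 4 was 3.25 ± 0.22 (SE; limma adjusted p = 0.00047).

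ZNF638, a nuclear protein known to recruit the HUSH silencing complex to retroviral DNA, followed with 13.0, 13.3, 14.4 and 13.6 FPKM on day 30 against 0.589, 0.211, 0.749 and 1.53 on day 4, in the order DMSO, NCD38, NCD38-β2P4 and NCD38-β2PIPP (log2 difference 3.09 ± 0.21, limma adjusted p = 0.00046). ZNF146, a protein made almost wholly of zinc fingers and known as overexpressed in colorectal cancer, was at 17, 21.7, 20.8 and 16.4 FPKM on day 30 and at 0.958, 0.478, 1.45 and 3.23 on day 4 (3.09 ± 0.32, limma adjusted p = 0.00096). ZNF195, a KRAB gene, was at 14.2, 14, 16.1 and 14.1 FPKM against 0.641, 0.524, 0.889 and 1.52 (3.07 ± 0.18, limma adjusted p = 0.00040). Day 4 levels of all 3 genes were again lowest with NCD38 and highest with NCD38-β2PIPP, whereas the day 30 levels lay close together. ZNF23 and ZNF883 completed the 6 highest, with log2 differences of 2.89 and 2.88.

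In the other direction, ZNF496, a partner of the methyltransferase NSD1, was at 4.71, 4.22, 4.92 and 3.38 FPKM on day 30 and at 23.6, 21.5, 24.0 and 23.7 FPKM on day 4 (log2 difference −2.20 ± 0.14, limma adjusted p = 0.00043). ZNF689, a KRAB gene, was at 0.824, 0.676, 0.499 and 0.368 FPKM against 6.13, 5.09, 6.86 and 6.03 (−2.15 ± 0.17, limma adjusted p = 0.00056). ZNF687, which forms a chromatin complex with ZMYND8, was at 3.14, 3.14, 3.36 and 3.08 FPKM against 11.7, 12.5, 10.5 and 10.4 (−1.55 ± 0.14, limma adjusted p = 0.00075). In these 3 genes the day 4 libraries lay close together, without the wide spread seen in ZNF300. ZNF703, a co-repressor known as an oncogene of luminal breast cancer, ZNF500 and ZNF48 had log2 differences of −1.5, −1.48 and −1.43.

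All 12 differences kept their sign and passed the threshold when the median of features of like GC content was subtracted in each library, but they were smaller. The difference became 2.14 in ZNF300, 1.88 in ZNF638, 1.87 in ZNF146, 2.13 in ZNF195, 2.2 in ZNF23 and 1.47 in ZNF883. It became −1.48 in ZNF496, −1.52 in ZNF689, −0.77 in ZNF687, −0.82 in ZNF703, −0.76 in ZNF500 and −0.65 in ZNF48. In 8 of the 12 genes the size thus moved by more than 1.5 times. The 12 genes were picked for their size in the main fit, so passing here is no separate support for their day difference. Some also met the filter on the mean through the day on which they were high. ZNF638 and ZNF195 were under 2 FPKM in every day 4 library, and ZNF689 in every day 30 library.

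**Figure D1:**
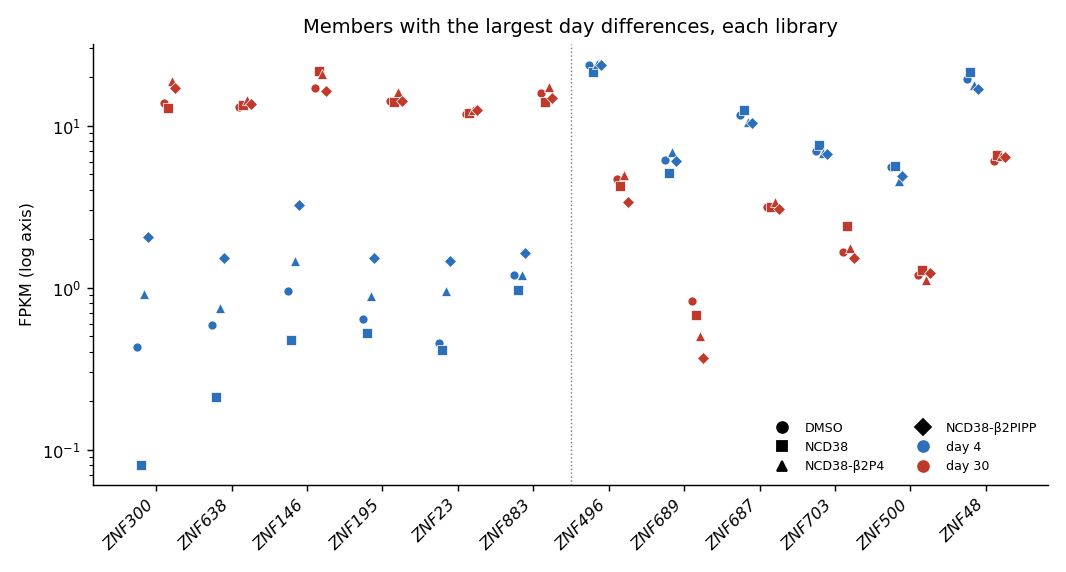
FPKM (log axis) of the 6 members with the highest and the 6 with the lowest log2 difference of day 30 against day 4, 1 point per library, coloured by day and shaped by treatment. The 4 libraries of each day are separate in all 12 genes, and in the 6 genes on the left the day 4 values spread with treatment, as in ZNF300 from 0.0809 to 2.05 FPKM.

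Both groups differ in base composition, also in the fingers found by the pattern. To show this, the first matching finger-coding run of 63 bases within 1 exon is given for 3 genes of each group, read from the coding strand of GRCh37 (GENCODE), with the codons of the zinc-binding cysteines (TGT or TGC) and histidines (CAT or CAC) in capitals. The first 3 genes were higher on day 30.
ZNF300, chr5:150275928-150275990, minus strand: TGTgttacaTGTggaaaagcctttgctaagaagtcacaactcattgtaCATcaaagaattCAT
ZNF195, chr11:3381440-3381502, minus strand: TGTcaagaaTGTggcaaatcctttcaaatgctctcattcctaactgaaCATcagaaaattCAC
ZNF146, chr19:36727394-36727456, plus strand: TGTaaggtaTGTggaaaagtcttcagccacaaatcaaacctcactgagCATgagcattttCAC
The next 3 genes were lower on day 30.
ZNF496, chr1:247464214-247464276, minus strand: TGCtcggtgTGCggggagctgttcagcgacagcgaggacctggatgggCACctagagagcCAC
ZNF689, chr16:30616491-30616553, minus strand: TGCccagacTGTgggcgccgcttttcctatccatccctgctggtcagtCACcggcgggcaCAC
ZNF687, chr1:151261007-151261069, plus strand: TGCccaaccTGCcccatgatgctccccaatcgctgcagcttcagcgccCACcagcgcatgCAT

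GC content of these runs was 34.9% in ZNF300, 36.5% in ZNF195 and 41.3% in ZNF146, against 65.1% in ZNF496, 65.1% in ZNF689 and 63.5% in ZNF687. The runs of the other genes with a match were at 39.7% in ZNF23, 46% in ZNF883, 58.7% in ZNF500 and 54% in ZNF48. Over all fingers found by the pattern, the mean per gene was 38.3% to 43% in the 5 higher genes with a match and 58.7% to 65.9% in the 5 lower ones. ZNF638 had no match to the pattern, and ZNF703 was not searched in this way. Of the 6 genes with the highest differences, transcript GC content was 38.7% to 42.7%, and of the 6 with the lowest it was 55.6% to 65.2%.

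This held across the members. The median transcript GC content was 41.8% in the 62 members higher on day 30 and 60.2% in the 62 lower ones. Spearman's correlation of the day difference with GC content was −0.77 over the 182 members and −0.68 over the 10186 tested features with a transcript. These are correlations across genes measured in the same 8 libraries, so the genes are not independent. With transcript length the correlation was 0.05.

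When the members were split by GC content into 3 groups of like size, 48 of 60 in the low-GC group (35.7% to 44.5%) were higher on day 30 and 0 lower, with a median log2 difference of 1.75. In the middle group 9 of 61 were higher and 18 lower, with a median of −0.18. In the high-GC group (55.8% to 70.9%) 5 of 61 were higher and 44 lower, with a median of −0.64. Over all features tested, 30.2% were higher and 31.7% lower. Of the 62 higher members, 43 had a day 4 mean under 2 FPKM and met the filter through day 30. These counts and medians, and the medians after GC subtraction below, are thus a description. When the median of features of like GC content was subtracted in each library, the medians of the 3 groups were 0.66, 0.02 and 0.08. The median level of the low-GC group was 5.41 to 6.20 FPKM in the day 30 libraries and 0.470 to 2.18 FPKM in those of day 4. In the high-GC group it was 6.15 to 6.66 FPKM on day 30 and 10.3 to 10.7 FPKM on day 4. These medians lay close together among treatments in the high-GC group, whereas single members of that group had log2 ratios of NCD38 to DMSO from −0.73 to 0.75 on day 4.

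Members and other features were then compared at like GC content. For this, 5 classes of GC content with like numbers of tested features were set, from class 1 (lowest) to class 5 (highest). In class 1 the median log2 difference was 1.86 in 31 members and 1.34 in 2004 other features, and 83.9% of the members and 78.0% of the others were higher on day 30. In class 2 it was 1.08 in 43 members and 0.56 in the others. It was −0.14 and −0.22 in class 3, −0.49 and −0.66 in class 4, and −0.65 and −0.74 in class 5. Members lay above other features in all 5 classes, by 0.08 to 0.53 on the log2 scale. However, members were filtered at a mean of 2 FPKM and the other features at 1 FPKM. In addition, 43 of the 62 higher members had a day 4 mean under 2 FPKM and met the filter through day 30. This difference has no test, is a description only and supports nothing about the members.

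When the median of 20 GC bins was subtracted in each library, 71 members were higher (39%) and 40 lower (22%) on day 30, in place of 62 and 62, beside 28.1% and 27.8% of the 10186 features in that fit. The median difference was 0.16. Of the 62 higher members, 52 were still higher, and of the 62 lower ones 27 were still lower. ZNF672 and ZNF706 passed the threshold in both fits with opposite signs. The part of GC content in the day difference was not tested. Leaving out either library of DMSO or of NCD38-β2P4 lowered the number of lower members to 38 or 39. The filter on the mean admitted 49 members with a day 4 mean under 2 FPKM and 14 with a day 30 mean under 2 FPKM.

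A few members went against their base composition. These were chosen after their values were seen. ZNF692, a regulator linked to AMPK signalling, has a transcript GC content of 59.7% and was at 18.6, 17.9, 15.7 and 20.7 FPKM on day 30 against 6.05, 4.81, 5.73 and 6.36 on day 4, in the order DMSO, NCD38, NCD38-β2P4 and NCD38-β2PIPP. All day 30 libraries were higher, and the log2 difference was 1.51, or 2.30 after GC subtraction. Only 5 of the 62 higher members had a GC content over 52%. In reverse, ZNF556 and ZNF259 were the 2 lower members of the lowest 2 GC classes, at 44.7% and 45.9%. ZNF259 was at 42.0 to 49.9 FPKM on day 30 and 62.8 to 74.4 on day 4 (log2 difference −0.62, or −0.85 after GC subtraction). ZNF207, at 36.8% GC, was at 55.7 to 80.9 FPKM on day 30 and 44.8 to 84.4 on day 4, without separation of the days (log2 difference −0.05, limma adjusted p = 0.87). It passed after GC subtraction, at −1.64, and also when either library of NCD38 was left out, at −0.35.

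KRAB content was examined next. The 68 members with a KRAB match had a median day difference of 0.79, with 34 higher and 15 lower on day 30 (30.2% and 31.7% of all features). The 111 without a match had a median of −0.30, with 26 higher and 47 lower. Their median GC content was 44.9% with a match and 53.4% without, and after GC subtraction the median differences were 0.32 and 0.11. Within GC classes the order was not uniform. In class 1 the median was 1.98 in 12 members with a match and 1.90 in 17 without, in class 2 it was 1.53 in 27 and 0.69 in 16, and in class 4 it was −0.94 in 9 and −0.48 in 21. On chromosome 19, 19 of the 54 members were higher and 20 lower, with a median of 0.03. The number of fingers moved the same way as KRAB: the median difference was 0.31 in 68 members with 10 or more C2H2 matches and −0.38 in 46 with 0 to 4. Their GC content was 47.2% and 53.2%, and after GC subtraction the medians were 0.21 and 0.08.

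Genes that work with KRAB proteins were examined as a list. Of 15 tested partner genes, 6 were higher on day 30 and 5 lower (30.2% and 31.7% of all features), with a median of 0.39 beside −0.02 over all features. TRIM28, the co-repressor that KRAB domains bind, was at 98.2 to 125 FPKM on day 30 and at 223 to 324 on day 4 (log2 difference −1.14 ± 0.12, limma adjusted p = 0.0011). CBX3, an HP1 protein that reads H3K9 methylation, was at 70.1 to 88.1 FPKM on day 30 and at 2.35 to 15.0 on day 4 (3.48 ± 0.41, limma adjusted p = 0.0013). MPHOSPH8 and PPHLN1, both of the HUSH complex, had log2 differences of 2.21 and 2.00. SETDB1 had one of −0.10 (limma adjusted p = 0.62). Transcript GC content was 64.2% in TRIM28, 35.3% in CBX3, 44.3% in MPHOSPH8 and 40.5% in PPHLN1. ATF7IP (40.1% GC) and CBX5 (41.8%) did not pass, with log2 differences of 0.07 and 0.39. MORC2, at 51.9% GC, was higher on day 30, at 0.83. After GC subtraction the median of the 15 partner genes was 0.11.

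Single ZNF genes with known roles were followed by a list, of which 9 passed the level filter. ZNF24, a SCAN-domain factor, was at 7.32 to 8.74 FPKM on day 30 and at 0.366 to 2.29 on day 4 (log2 difference 2.2, limma adjusted p = 0.0014, or 0.79 after GC subtraction, still past the threshold). ZNF143, a promoter-binding activator, had 2.89 to 4.73 FPKM on day 30 and 0.509 to 3.11 on day 4, so that its days overlapped, and its log2 difference was 1.05 (limma adjusted p = 0.043). This call was lost after GC subtraction, at 0.11, and without the filter on low FPKM. It was also lost when either library of DMSO, NCD38 or NCD38-β2P4 was left out, with values of 0.91, 0.76 and 1.10. ZNF335, a transcriptional co-regulator, was at 5.63 to 5.98 FPKM on day 30 and at 7.99 to 9.86 on day 4, a log2 difference of −0.53 (limma adjusted p = 0.021), or 0.18 after GC subtraction. Its call was lost when either library of DMSO, NCD38-β2P4 or NCD38-β2PIPP was left out, at −0.59, −0.55 and −0.51. ZNF516, ZNF281, ZNF263, ZNF202 and ZNF121 did not pass, with log2 differences of 0.06, 0.79, −0.38, 0.35 and 0.67, and the sign of ZNF281, ZNF263 and ZNF121 turned after GC subtraction. ZNF217, which joins CoREST and LSD1, was under the filter at 0.914 FPKM, and ZNF274, which brings SETDB1 to zinc finger gene clusters, was at 0.00690 FPKM.

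The question of the inhibitors was addressed in the same model, which averages each inhibitor over both days. A change on 1 day only would be averaged out in part and would also add to the spread. No member passed in the mean of the 3 inhibitors against DMSO, in any inhibitor against DMSO over both days, or in any of the 3 pairs of inhibitors (limma, adjusted over all 10865 features in each comparison). The share of all features called was 0.0276% for the mean of the inhibitors, 0.0368% for NCD38, 0.0184% for NCD38-β2P4 and 0.0184% for NCD38-β2PIPP. For the pairs it was 0.0092% for NCD38-β2P4 against NCD38, 0.0184% for NCD38-β2PIPP against NCD38 and 0.0276% for NCD38-β2PIPP against NCD38-β2P4. At an unadjusted p under 0.05, the counts of members against DMSO were 0 for the mean of the inhibitors (0.341% of all features), 1 for NCD38 (1.33%), 0 for NCD38-β2P4 (0.295%) and 0 for NCD38-β2PIPP (0.571%). For the pairs in the order above they were 1 (3.24%), 15 (6.37%) and 0 (0.313%). The 15 members are 8.2% of 182. The model had 3 residual degrees of freedom, to which limma added 2.51 by sharing the spread across features. On this basis, the 95% interval of a member had a median half-width of 0.52 on the log2 scale for the mean of the inhibitors. For each single comparison it was 0.64. These intervals are without adjustment, whereas calls needed an adjusted p under 0.05. Larger differences were missed as well: member differences reached 1.14 for NCD38-β2PIPP against NCD38, and none passed.

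Within a day, each inhibitor could be set beside 1 DMSO library without a test. For NCD38, NCD38-β2P4 and NCD38-β2PIPP, in this order, the median log2 ratio of members was 0.02, 0.05 and −0.05 on day 30, beside 0.06, 0.06 and −0.01 over all features. On day 4 it was −0.24, 0.17 and 0.30, beside −0.21, 0.09 and 0.17. For features matched in mean FPKM, the mean of the bin medians was −0.28, 0.16 and 0.32. Member medians thus lay close to those of features of like level. In the ratio of FPKM + 1, no member differed 2-fold from DMSO on day 30 in either direction. The shares of all features were 1.66%, 1% and 1.17% for the 3 inhibitors in the same order. On day 4, 5 members were at least 2-fold lower with NCD38 (4.54% of all features) and 16 at least 2-fold higher with NCD38-β2PIPP (10.3% of all features), which is 2.7% and 8.8% of the members. All 16 were in the low-GC group. With NCD38-β2P4 no member differed 2-fold in this ratio on day 4, beside 1.91% of all features. The added 1 shrinks ratios at low FPKM. In plain FPKM, ZNF300 differed more than 2-fold on day 4 with NCD38 and with NCD38-β2P4, and was not counted for either.

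**Figure D2:**
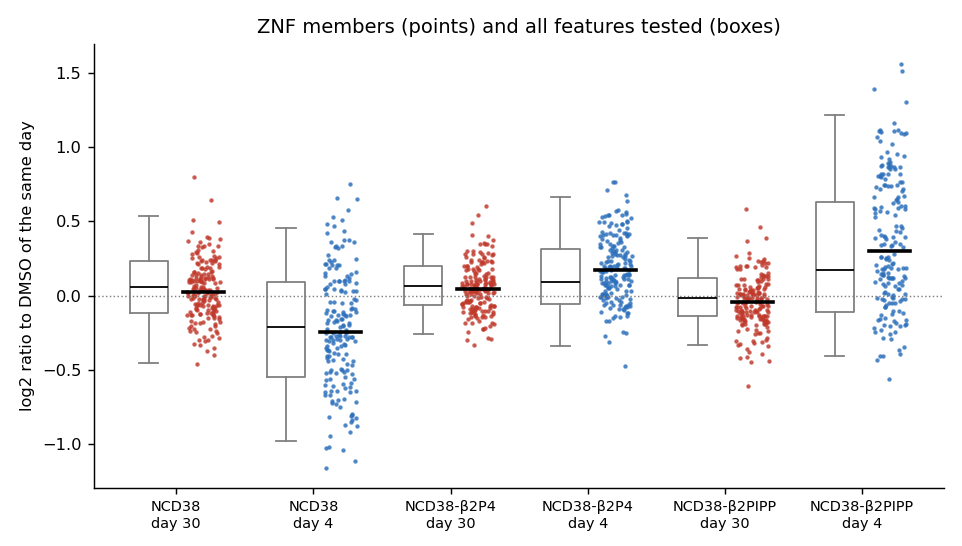
Log2 ratio of FPKM + 1 against DMSO of the same day (vertical axis) for each inhibitor and day. Points are the 182 members with their median as a thick line, and boxes show all 10865 tested features (median, quartiles, whiskers from the 5th to the 95th percentile). On day 30 the member medians lie within 0.05 of 0, and on day 4 they lie at −0.24, 0.17 and 0.30.

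The order of the day 4 libraries differed between the groups of GC content as well. In the low-GC group, the NCD38 library was the lowest of the 4 in 55 of 60 members (91.7%; 92.4% of other features in this GC range), and the NCD38-β2PIPP library was the highest in 57 (95%; 91.8% of the others). In the middle group, NCD38 was the lowest in 55 of 61 members (90.2%; 70.8% of the others). There, NCD38-β2PIPP was the highest in 45 (73.8%; 54.7% of the others). In the high-GC group, NCD38 was the highest of the 4 in 41 of 61 members (67.2%; 65.6% of the others). Members were filtered at a mean of 2 FPKM and the others at 1 FPKM. The median log2 ratio of NCD38 to DMSO on day 4 was −0.30, −0.50 and 0.16 in the low, middle and high group. On day 30, NCD38-β2PIPP was the highest in 4 of 60 members of the low-GC group. Spearman's correlation of the ratio with GC content over the 182 members was 0.53 for NCD38, −0.56 for NCD38-β2P4 and −0.77 for NCD38-β2PIPP on day 4, and −0.11, −0.48 and −0.22 on day 30. After subtraction of GC bins, the day 4 medians became −0.01, 0.06 and 0.09. The part of GC content in these ratios was not tested.

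Members whose ratio had the same sign on both days were ranked by the smaller of the 2 ratios. ZNF672 was at 52.5 FPKM with DMSO and 66.4 with NCD38 on day 30, and at 66.9 and 92.8 on day 4. NCD38 was thus above DMSO on both days, by 0.33 and 0.47 on the log2 scale, and the fitted difference was 0.40 ± 0.14 (SE; limma unadjusted p = 0.029, adjusted p = 1). ZNF775 and ZNF444 also lay above DMSO with NCD38, by 0.51 and 0.34 and by 0.30 and 0.53 on day 30 and day 4. These 3 genes have a transcript GC content of 62.4%, 69.3% and 68.7%. Below DMSO lay ZNF266 (−0.30 and −1.04), ZNF629 (−0.32 and −0.29) and ZNF839 (−0.30 and −0.27). ZNF266, a KRAB gene at 45.7% GC, stood at 16.8 FPKM with NCD38 and 20.9 with DMSO on day 30, and at 1.51 and 4.16 FPKM on day 4, where it was 1 of the 5 members at least 2-fold lower.

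With NCD38-β2P4, ZNF300, ZNF828 and ZNF383 lay highest against DMSO, by 0.41 and 0.42, by 0.40 and 0.58, and by 0.38 and 0.64 on day 30 and day 4. ZNF828, now CHAMP1, acts in the attachment of chromosomes to the spindle. It was at 6.95 FPKM with NCD38-β2P4 and 5.03 with DMSO on day 30, and at 11.1 and 7.07 on day 4. ZNF593 (−0.18 and −0.47), ZNF688 (−0.18 and −0.27) and ZNF581 (−0.22 and −0.13) lay lowest. The counting half-width of ZNF688 was 0.42 and 0.64, larger than its ratios. This half-width is for a ratio of fragments and not of FPKM + 1, so the scales differ, and it is not given here for the other genes. On day 4, ZNF300 was under 1 FPKM in both libraries of its ratio.

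With NCD38-β2PIPP, the KRAB genes ZNF432 (0.46 and 0.60), ZNF841 (0.39 and 1.16) and ZNF7 (0.37 and 0.39) lay highest. ZNF841 was at 8.23 FPKM against 6.07 with DMSO on day 30, and at 2.90 against 0.743 on day 4. ZNF432 and ZNF841 overlap on the minus strand of chromosome 19 (chr19:52534631-52598991 and chr19:52567718-52599018, GRCh37), so their values may not be independent. ZNF580 (−0.31 and −0.20), ZNF282 (−0.20 and −0.19) and ZNF213 (−0.33 and −0.19) lay lowest, and all 3 have a GC content above 63%. Between the compounds, the 15 members under an unadjusted p of 0.05 for NCD38-β2PIPP against NCD38 were led by ZNF7, at 0.83 ± 0.27 (SE; limma unadjusted p = 0.023, adjusted p = 0.53).

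The polyamides were designed for short DNA sequences, so promoters of the members were searched for them. RefSeq promoters (GRCh38.p14, 250 bases before to 50 after the start) were matched for 156 members. A run of 6 bases of A or T, on either strand, was present in 67 (42.9%), in 45.8% of promoters of tested features and in 62.2% of 27305 RefSeq promoters. A CG with 2 bases of A or T on each side was present in 29 (18.6%), in 18.2% of tested features and in 16.2% of all promoters. Windows of 30 bases from 5 promoters are shown with the match in capitals, chosen among genes at the ends of the ranking for a conjugate because they hold a match. The first 4 hold a run of A or T and belong to the genes highest (ZNF300, ZNF383) and lowest (ZNF688, ZNF581) with NCD38-β2P4, and the last holds a flanked CG.
ZNF300, chr5:150905096-150905125, minus strand: caatcccccttgTAAAATctttctgcaaaa
ZNF383, chr19:37218093-37218122, plus strand: tgcaagaacccgAAAAAAcaggcgccatct
ZNF688, chr16:30571800-30571829, minus strand: cactgaggaattATATTTgtccctatcaga
ZNF581, chr19:55643439-55643468, plus strand: gaccctttgctcAATAAAcattccgcactc
ZNF580, chr19:55640819-55640848, plus strand: tcaagcggcggaATCGTTccgttcgggagg

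Of the other genes at these ends, ZNF828 and ZNF593 had no run of A or T in the window. ZNF282 also held a flanked CG, ZNF432, ZNF841 and ZNF213 held none, and ZNF7 was not matched. The median log2 ratio with NCD38-β2P4 was 0.04 in the 67 members with a run and 0.05 in the 89 without on day 30, and 0.16 and 0.17 on day 4. With NCD38-β2PIPP it was −0.10 in the 29 members with a flanked CG and −0.04 in the 127 without on day 30, and 0.35 and 0.26 on day 4. Their median transcript GC content was 46.0% and 49.3%. After GC subtraction the NCD38-β2PIPP medians were −0.10 and −0.05 on day 30, and 0.005 and 0.09 on day 4, so the day 4 order turned. These are letters within a fixed window and not bound sites.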

How the data were processed

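Total RNA of RKO cells was made into stranded mRNA libraries, and per the Methods the authors aligned reads with TopHat and computed FPKM with Cufflinks. The submitters' processing notes also name HISAT2 and hg19. The deposited table holds FPKM for 8 libraries, without counts. Identifiers that occurred more than once (90 rows) were left out. Whether counting used strand is not given in the sources used here, and reads shared by near-identical zinc finger genes may be split in an unknown way.

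Members and lists were chosen with earlier results of these data known. Log2(FPKM + 1) was modelled in R 4.3.3 with limma 3.58.1 (treatment and day, trend, 3 residual degrees of freedom) over 10865 features with a mean of at least 1 FPKM. A log2 difference on this scale understates the change of genes with low FPKM. Nothing says that libraries came from separate cultures. With 1 library per condition, the spread in the model is the change of treatment differences between the days. The p-values measure differences only against this spread. On simulated data for 10865 features with 200 changed by 1.5 on the log2 scale, 178 were recovered for day and 156 for the mean of the inhibitors. The simulated noise was independent between features, and the inhibitor change was the same on both days. Member differences for the mean of the inhibitors ran from −0.20 to 0.37, so this recovery does not apply to changes of that size. Python 3.11.15 computed ratios, counts and figures.

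Named genes were the 6 highest and 6 lowest called day differences, for each inhibitor the 3 highest and 3 lowest by the smaller ratio of both days with the same sign, the 6 highest mean FPKM and the members of a list. GC content and reading frames come from 1 GENCODE release 44 transcript per gene (GRCh37), matched for 182 members (12 by synonym) and 93.8% of tested features. KRAB and finger matches were sought as codon patterns, in place of the protein sequences first planned. Depth was estimated from the FPKM of low genes, and 95% half-widths from it cover counting error only. Alternatives changed the pseudocount, scaling, GC or length correction (length added after the data were seen), filter, model and libraries. ChIP-seq files were not used here.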

Additional observations from a re-analysis of the deposited data

Results flagged for a closer look

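The median log2 ratio of members against DMSO had opposite signs on the 2 days for a pair of treatments, and so did that of all features tested. With NCD38 it was 0.023 on day 30 and −0.242 on day 4, beside 0.059 and −0.209 over all features. After rescaling by the median ratio, the NCD38 medians of members were −0.0041 and 0.0116. With NCD38-β2PIPP the median of members was −0.046 on day 30 and 0.304 on day 4, beside −0.014 and 0.175 over all features. The correlation of the NCD38 ratio with transcript GC content over members also changed sign, from −0.11 on day 30 to 0.53 on day 4. Over the tested features with a transcript it was −0.175 and 0.585. With 1 library per treatment and day, none of these differences was tested, and all ratios of a day share 1 DMSO library.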

How the results depend on the processing

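Counts of members called between the days stayed within 1.5 times under other pseudocounts, rescaling, no filter, length correction, no treatment terms and limma without trend. They became 33 higher among the 114 members at 4 FPKM or above and 40 lower after subtraction of GC bins. Leaving out each library in turn gave 51 to 68 higher and 38 to 76 lower. No member was called for an inhibitor under any alternative run, leaving out a library included. All 204 alternative values of the 12 genes with the largest day differences stayed on the same side of the threshold with the same sign, and GC subtraction moved 8 of the 12 by more than 1.5 times. These genes were picked for their size in the main fit. Several settings return the same log2 difference, as does leaving out either library of a treatment, so the 204 values are not independent. No paired analysis was possible because the labels give no replicate numbers. The treatment terms already tie the 2 days of a treatment, and without them 66 members were higher and 64 lower.

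Medians of the ratios depended on scaling by more than their counting error, except for NCD38-β2PIPP on day 30 (−0.046, −0.055 when rescaled and −0.048 after GC subtraction). With pseudocounts of 0.1 and 0.5, the day 4 medians were −0.35 and −0.28 for NCD38, 0.22 and 0.19 for NCD38-β2P4, and 0.37 and 0.33 for NCD38-β2PIPP. Rescaling by the median ratio gave −0.0041 (day 30) and 0.012 (day 4) for NCD38, 0.0019 and 0.098 for NCD38-β2P4 and 0.10 (day 4) for NCD38-β2PIPP. Subtracting GC bins gave −0.018 and −0.0061, −0.022 and 0.060, and 0.090 (day 4) in the same order. Members at 4 FPKM or above gave day 4 medians of −0.16, 0.12 and 0.14.

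The sign of the day difference turned after GC subtraction in 49 of the 182 members, among them, of the genes named, ZNF672 (0.41), ZNF580 (0.29), ZNF335 (0.18), ZNF263 (0.24), ZNF281 (−0.15) and ZNF121 (−0.54), and with length bins for ZNF593 (−0.083) and ZNF516 (−0.13). Without 1 library it turned for ZNF207 (−0.35 to 0.13) and ZNF516 (−0.18 to 0.30). The cause was not tested beyond these settings. Depth limits members with few fragments, down to an estimated 3.5 in a library.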

Other observations

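Zinc finger genes named for other domains (ZBTB, ZSCAN, ZKSCAN and ZFP symbols) numbered 32 at 2 FPKM or above. Their median day difference was −0.30 on the log2 scale, beside −0.04 in the ZNF members, with 5 higher and 15 lower on day 30 (30.2% and 31.7% of all features). Their median transcript GC content was 52%, beside 49.0% in the ZNF members, and after subtraction of GC bins their median was 0.02.

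Of 13 tested genes of the LSD1 complex, 2 were higher and 4 lower on day 30 (30.2% and 31.7% of all features), with a median of −0.04. KDM1A, which encodes LSD1, was at 39.4 to 46.1 FPKM on day 30 and at 38.0 to 72.1 on day 4, and its log2 difference of −0.40 did not pass (limma adjusted p = 0.13). HDAC2, a deacetylase of the CoREST complex, was at 10.7 to 12.5 FPKM on day 30 and at 0.649 to 3.57 on day 4 (log2 difference 2.23, limma adjusted p = 0.0017), with a transcript GC content of 37.8%. HDAC1, its close homolog, was at 62.7 to 73.0 FPKM and 80.8 to 106 FPKM (−0.50, limma adjusted p = 0.019), with a GC content of 49.5%. On day 4 the NCD38 library was again the lowest of the 4 for both.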
